A study of Homo sapiens with 4 samples.

Results

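The 38 genes described here encode enzymes of central carbon metabolism, and they were taken by name from the table of 28198 genes: 17 of glycolysis and lactate formation, 6 of the pentose phosphate pathway and 15 of the TCA cycle. All 38 were present in the table and all passed a minimum mean of 1 FPKM over the libraries, as did 10905 genes in all. FPKM is fragments scaled by transcript length and by the number mapped, a level relative to the rest of the library. Polysome profiling was performed on the human breast cancer line MDA-MB-231 after METTL3 depletion and lentiviral reconstitution with WT METTL3 or with METTL3 K177Q, an acetylation-mimetic form of this m6A RNA methyltransferase. Both groups thus carry the depletion, both were cultured in DMEM with serum, and both received cycloheximide at 100 µg/mL for 5 min before lysis. Whether the reconstituting cells were a clone or a pool is not given in the sources used here. Gradient fractions were combined into a sub-polysome sample (free subunits and monosomes) and a polysome sample. With 4 libraries, 1 per genotype and fraction and all labelled replicate 2, no value below has a replicate error and no difference was tested.

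In glycolysis, a glucose molecule is phosphorylated, split and oxidized to pyruvate, which lactate dehydrogenase can reduce to lactate. The pentose phosphate pathway branches off to make NADPH and ribose phosphate, and its non-oxidative reactions return sugars to glycolysis. The TCA cycle, in the mitochondrial matrix, oxidizes the acetyl group of acetyl-CoA and feeds electrons to the respiratory chain. The genes listed for it here, and all values given for that list, include IDH1 and MDH1, which encode cytosolic enzymes. Many cancer cells keep high glycolytic flux even where oxygen is present.

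METTL3 itself had a sub-polysome level of 9.39 and a polysome level of 38.7 FPKM in METTL3 WT cells, against 5.07 and 29.5 FPKM in METTL3 K177Q cells. Endogenous and vector-derived mRNA are not separated by these values. The FPKM totals of the libraries ran from 767949 to 1037594, and the depth, read from the lowest cluster of values, was approximately 24700000 to 26300000 fragments. VIM, CD44, AXL and CAV1, which mark the mesenchymal-like state of the line, were at 88.6 FPKM or more in every library. The hormone receptors ESR1 and PGR and the leukocyte gene PTPRC did not exceed 0.0515 FPKM, and the epithelial cadherin CDH1 did not exceed 0.632 FPKM. EPCAM, another epithelial marker, was detected at 6.20 to 9.91 FPKM.

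Translation efficiency here is the ratio of the polysome to the sub-polysome level, each with 0.1 FPKM added. Since FPKM is relative to the rest of each library, a value above 1 says that an mRNA held a larger share of polysome than of sub-polysome RNA, not that most of its molecules were in polysomes. The mRNAs of these enzymes had high values. Their median was 1.99 with METTL3 WT and 2.07 with METTL3 K177Q, while over all genes kept it was 1.11 and 1.12. In METTL3 WT cells the polysome value was at least 1.5-fold above the sub-polysome value for 33 of the 38 genes, where 28.1% of all genes kept passed this limit. In METTL3 K177Q cells it was so for 32 of the 38, against 30.2% of all genes kept. For the 5379 genes whose mean reached 10 FPKM, a set closer to these enzymes in level, the median translation efficiency was 1.21 in METTL3 WT and 1.16 in METTL3 K177Q cells. In the values that follow, a pair of levels gives the sub-polysome before the polysome library, and a pair of translation efficiencies gives METTL3 WT before METTL3 K177Q cells. A bulk library cannot tell fewer cells with an mRNA from less of that mRNA in each cell.

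**Figure D1:**
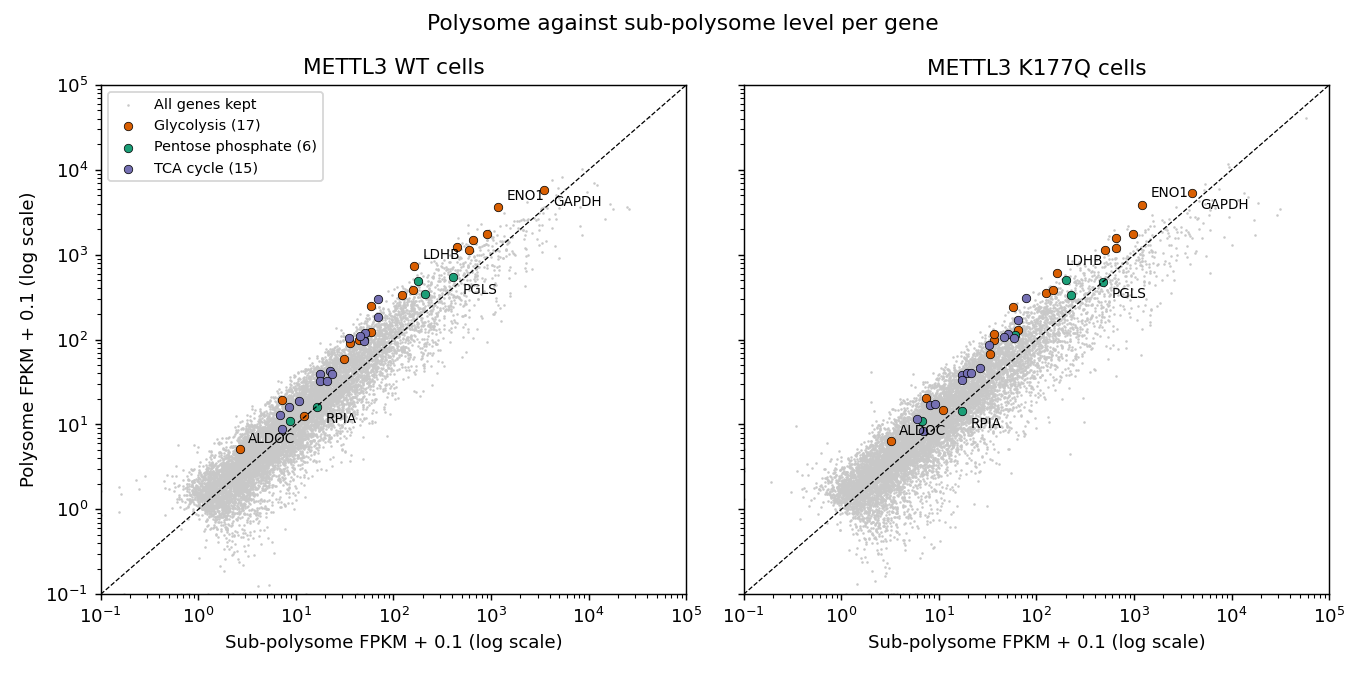
Each point is 1 gene, with its sub-polysome level on the x axis and its polysome level on the y axis (FPKM + 0.1, log scales), in METTL3 WT cells on the left and METTL3 K177Q cells on the right. Grey points are the 10905 genes kept, coloured points the 38 enzymes by pathway, and the dashed line marks equal levels. Above it lie 37 of the 38 in each genotype, with RPIA below as deposited. Of the 10905 genes kept, 6246 lie above it in METTL3 WT and 6236 in METTL3 K177Q cells.

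The pathways differed in how far their mRNAs lay in polysomes. Glycolytic genes had the highest median translation efficiency, 2.29 in METTL3 WT and 2.40 in METTL3 K177Q cells. TCA cycle genes followed with 1.91 and 2.10, and pentose phosphate genes had 1.48 and 1.53. A higher median in METTL3 K177Q cells does not mean that most genes of a pathway rose. As deposited, translation efficiency was higher there for 11 of 17 glycolytic, 6 of 15 TCA cycle and 1 of 6 pentose phosphate genes. At least 1.5-fold more polysome than sub-polysome FPKM was found in METTL3 WT cells for 16 of 17 glycolytic genes, 14 of 15 TCA cycle genes and 3 of 6 pentose phosphate genes. The order of the pathway medians was the same in both genotypes, but the ranges overlapped throughout. Translation efficiency on the log2 scale ran from 0.06 to 2.18 in glycolysis, from -0.01 to 1.44 in the pentose phosphate pathway and from 0.30 to 2.12 in the TCA cycle of METTL3 WT cells.

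The levels also differed between pathways. Summed FPKM of the glycolytic genes made up 0.886% of the sub-polysome and 2.09% of the polysome library of METTL3 WT cells, and 0.825% and 2.21% in METTL3 K177Q cells. The pentose phosphate genes made up 0.0970% and 0.184% in METTL3 WT cells, against 0.0953% and 0.188% in METTL3 K177Q cells. For the TCA cycle genes these shares were 0.0504% and 0.141%, and 0.0446% and 0.149%. Each pathway thus took a larger share of polysome than of sub-polysome RNA in both genotypes. GAPDH alone gave 44.1% of the glycolytic sum in the sub-polysome library of METTL3 WT cells and 33.8% in their polysome library, so these sums lean on few genes.

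The start codon contexts of the genes at either end of each pathway are shown because the bases around the start codon bear on initiation. Each sequence holds 9 bases before the start codon, the codon and 1 base after it, so that the first 9 lie in the 5' untranslated region, with capitals for the base at position -3, the codon and the base at position +4, counted from the A of the codon as +1. They come from the canonical transcripts of GENCODE 44 on GRCh38, where the start codons lie in the first coding exon of each gene. LDHB, PGK1, TALDO1 and MDH1 had the highest translation efficiency of their pathway in one or both genotypes, and HK2, RPIA and IDH3A had the lowest in both.
LDHB, chr12:21654669-21654671, minus strand: ctgtgcAaaATGG
PGK1, chrX:78104341-78104343, plus strand: atttccAaaATGT
HK2, chr2:74834581-74834583, plus strand: cgcggcAggATGA
TALDO1, chr11:747482-747484, plus strand: ggtcttGctATGT
RPIA, chr2:88691699-88691701, plus strand: ggcgtcGggATGC
MDH1, chr2:63589044-63589046, plus strand: ttttcaAtcATGT
IDH3A, chr15:78149404-78149406, plus strand: ggggaaGcgATGG
All 7 have A or G at position -3, but the share of all coding genes with such a base was not counted, so this sets none of them apart. The full form searched, ANNATGG or GNNATGG on the transcript strand, was present at the start codons of LDHB and IDH3A. The translation efficiency of IDH3A was the lowest of its pathway, yet above 57.9% of all genes kept in METTL3 WT and 57.0% in METTL3 K177Q cells. Over the 38 genes it was present in 19 (50.0%), against 47.6% of the 10305 coding genes kept. Their 5' ends were short: the median 5' untranslated length was 61.5 bases, against 129 over all coding genes kept, while the median coding length was 1278 bases against 1320. A transcript start of C followed by 4 bases of C or T, the shape of a terminal oligopyrimidine tract, was found in PGLS, PGD and CS, 7.89% of the 38 genes against 5.74% of coding genes kept.

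The first steps of glycolysis phosphorylate glucose and its products. HK1, hexokinase 1, on chromosome 10 from 69269984 to 69401884, had a sub-polysome level of 35.9 and a polysome level of 91.2 FPKM in METTL3 WT cells, against 36.5 and 97.8 FPKM in METTL3 K177Q cells. HK2, the inducible hexokinase often raised in tumors, on chromosome 2 from 74834127 to 74893359, had 12.0 and 12.5 FPKM in METTL3 WT cells, against 11.0 and 14.7 FPKM in METTL3 K177Q cells. HK1 was therefore the more abundant hexokinase in every library, and more so in polysomes, where it was 7.31-fold above HK2 in METTL3 WT and 6.68-fold above HK2 in METTL3 K177Q cells. In the sub-polysome libraries the excess was 2.99-fold and 3.33-fold. HK2 had a translation efficiency of 1.04 in METTL3 WT cells, below the median of all genes, and 1.33 in METTL3 K177Q cells. GPI, which turns glucose 6-phosphate into fructose 6-phosphate, had 2.09 and 1.98.

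Phosphofructokinase catalyses the committed step, and its 3 subunit genes differed mainly in level. PFKP, the platelet-type subunit, on chromosome 10 from 3066333 to 3137718, made up 70.3% to 74.2% of the family's summed FPKM in the 4 libraries. PFKM, the muscle-type subunit, made up 4.11% to 4.29%. PFKL, the liver-type subunit, on chromosome 21 from 44300051 to 44327376, was between them. PFKL had a sub-polysome level of 44.6 and a polysome level of 99.1 FPKM in METTL3 WT cells, against 36.2 and 115 FPKM in METTL3 K177Q cells. Its K177Q value was lower in the sub-polysome and higher in the polysome library, so its translation efficiency was 2.22 against 3.18. For PFKP it was 2.77 and 2.79, and for PFKM 2.70 and 2.83.

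Aldolase, triosephosphate isomerase and GAPDH split the sugar and oxidize the triose products. ALDOA, the main aldolase, had 901 and 1770 FPKM in the sub-polysome and polysome libraries of METTL3 WT cells and 977 and 1767 FPKM in METTL3 K177Q cells. ALDOC, the brain-type aldolase, had 2.59 and 5.02 FPKM, and 3.17 and 6.26 FPKM. ALDOA exceeded ALDOC by 282-fold to 352-fold, yet their translation efficiencies were close, 1.96 and 1.90 in METTL3 WT cells. ALDOC had approximately 109 fragments in its lowest library, the fewest of the 38 genes. TPI1, triosephosphate isomerase, had a translation efficiency of 1.91 and 1.81. GAPDH, on chromosome 12 from 6534512 to 6538374, was the most abundant of the 38, with 3514 and 5785 FPKM in METTL3 WT cells, against 3889 and 5347 FPKM in METTL3 K177Q cells. At 1.65 and 1.37, its translation efficiency was next to the lowest of glycolysis in both genotypes. GENCODE 44 names 65 pseudogenes after GAPDH, and how reads shared with them were assigned is not given in the sources used here.

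The later steps form ATP and pyruvate. PGK1, phosphoglycerate kinase, on chromosome X from 77910739 to 78129295, had a sub-polysome level of 59.3 and a polysome level of 245 FPKM in METTL3 WT cells, against 58.0 and 241 FPKM in METTL3 K177Q cells. These values give a translation efficiency of 4.13 and 4.15, above 99.7% and 99.4% of the genes kept, and almost the same in both genotypes. PGAM1, phosphoglycerate mutase, had 2.45 and 2.62, and PKM, pyruvate kinase, had 2.29 and 2.40. ENO1, the ubiquitous enolase, on chromosome 1 from 8861000 to 8879190, had 1171 and 3617 FPKM in METTL3 WT cells, against 1193 and 3887 FPKM in METTL3 K177Q cells. ENO2, the neuronal enolase, had 31.1 and 58.9 FPKM, and 33.3 and 68.0 FPKM. ENO1 outnumbered ENO2 by 37.7-fold in the sub-polysome library of METTL3 WT cells and by 61.4-fold in their polysome library, and by 35.9-fold and 57.2-fold in METTL3 K177Q cells.

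The lactate dehydrogenase genes were unlike in their distribution. LDHA, whose subunit favours lactate formation, on chromosome 11 from 18394560 to 18408425, had 442 and 1217 FPKM in METTL3 WT cells, against 498 and 1126 FPKM in METTL3 K177Q cells. LDHB, whose subunit favours pyruvate formation, on chromosome 12 from 21635342 to 21757857, had 161 and 730 FPKM in METTL3 WT cells, against 162 and 616 FPKM in METTL3 K177Q cells. LDHB made up 26.6% of the pair in the sub-polysome library of METTL3 WT cells and 37.5% in their polysome library. In METTL3 K177Q cells these shares were 24.5% and 35.3%. LDHB had the highest translation efficiency of the 38 genes in METTL3 WT cells, 4.54. PGK1 had the highest in METTL3 K177Q cells, where LDHB had 3.81.

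**Figure D2:**
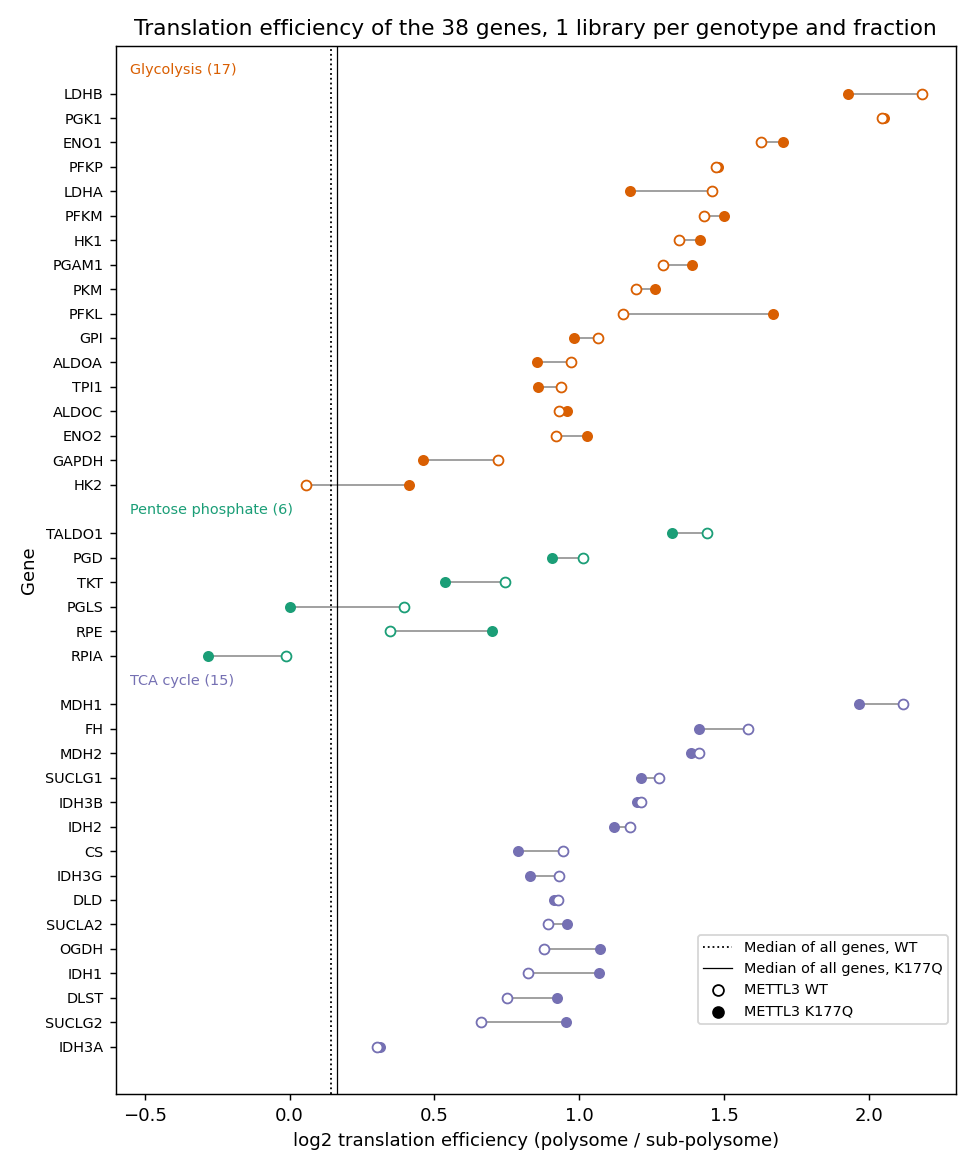
Log2 translation efficiency (x axis) of each of the 38 genes (y axis, by pathway), with open points for METTL3 WT and filled points for METTL3 K177Q cells, and vertical lines at the median of all genes kept (0.14 and 0.16). In METTL3 WT cells HK2 and RPIA lie below the line, and in METTL3 K177Q cells RPIA and PGLS do.

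In the oxidative arm of the pentose phosphate pathway, PGLS hydrolyses 6-phosphogluconolactone and PGD makes NADPH and ribulose 5-phosphate. PGLS, on chromosome 19 from 17511636 to 17521288, had a sub-polysome level of 411 and a polysome level of 541 FPKM in METTL3 WT cells, against 475 and 476 FPKM in METTL3 K177Q cells. It was the most abundant gene of the pathway by its mean over the libraries, with TALDO1 above it in the METTL3 K177Q polysome library, and as deposited its level was nearly the same in both fractions of METTL3 K177Q cells. PGD, on chromosome 1 from 10398592 to 10420511, had 49.4 and 99.9 FPKM, and 60.6 and 114 FPKM, a translation efficiency of 2.02 and 1.88.

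The non-oxidative arm interconverts sugar phosphates. RPIA, ribose 5-phosphate isomerase, on chromosome 2 from 88691673 to 88750929, had 16.2 and 16.1 FPKM in METTL3 WT cells, against 17.3 and 14.2 FPKM in METTL3 K177Q cells. It alone among the 38 genes had less FPKM in polysomes than outside them in both genotypes, with a translation efficiency of 0.992 and 0.822. With each library rescaled to the same total (TPM) this direction turned, to a log2 translation efficiency of 0.12 and 0.15. RPE, the ribulose-phosphate epimerase, had 8.51 and 10.9 FPKM, and 6.64 and 10.8 FPKM, so that its polysome values as deposited were alike and its sub-polysome value was lower in METTL3 K177Q cells. TALDO1, transaldolase, on chromosome 11 from 747415 to 765012, had 179 and 487 FPKM, and 200 and 500 FPKM. TKT, transketolase, had 208 and 348 FPKM, and 228 and 331 FPKM. Transaldolase mRNA thus lay further in polysomes than transketolase mRNA, at 2.71 and 2.50 against 1.67 and 1.45, although both enzymes act in the same arm.

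The TCA cycle begins with CS, citrate synthase, whose translation efficiency was 1.92 and 1.73. The NADP-dependent isocitrate dehydrogenases are cytosolic (IDH1) and mitochondrial (IDH2). IDH1, on chromosome 2 from 208236229 to 208266074, had 10.6 and 18.9 FPKM in METTL3 WT cells, against 7.99 and 16.9 FPKM in METTL3 K177Q cells. IDH2, on chromosome 15 from 90083045 to 90102477, had 17.4 and 39.4 FPKM, and 17.4 and 37.9 FPKM. IDH2 was the more abundant in every library, by 1.64-fold to 2.25-fold, and its sub-polysome value as deposited hardly differed between genotypes, while that of IDH1 was 0.754 times as high in METTL3 K177Q cells.

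The NAD-dependent isocitrate dehydrogenase of the cycle is a complex of a catalytic alpha subunit (IDH3A) with beta (IDH3B) and gamma (IDH3G) subunits. IDH3A, on chromosome 15 from 78131498 to 78171945, had 7.15 and 8.84 FPKM in METTL3 WT cells, against 6.72 and 8.38 FPKM in METTL3 K177Q cells. IDH3B, on chromosome 20 from 2658395 to 2664219, had 50.8 and 118 FPKM, and 51.0 and 117 FPKM. IDH3G, on chromosome X from 153785766 to 153794512, had 50.0 and 95.5 FPKM, and 58.8 and 104 FPKM. The catalytic subunit thus had the least mRNA of the 3 in every library, between 3.64% and 6.62% of their sum, and the least of it in polysomes, with a translation efficiency of 1.23 and 1.24. An exon of IDH3A overlaps ACSBG1 on the other strand, and whether fragments were assigned by strand is not given.

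The 2-oxoglutarate dehydrogenase complex is built of OGDH, DLST and DLD. Their translation efficiencies were 1.84 and 2.10 for OGDH, 1.68 and 1.90 for DLST, and 1.90 and 1.88 for DLD. Succinyl-CoA synthetase pairs SUCLG1 with a GTP-specific (SUCLG2) or an ATP-specific (SUCLA2) beta subunit. SUCLG2 had 20.7 and 32.7 FPKM in METTL3 WT cells, against 17.1 and 33.2 FPKM in METTL3 K177Q cells. SUCLA2 had 6.80 and 12.7 FPKM, and 5.83 and 11.4 FPKM. SUCLG2 was the more abundant beta subunit in every library, by 2.57-fold to 3.04-fold. The shared subunit SUCLG1 exceeded both, with 45.4 and 110 FPKM in METTL3 WT cells.

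Fumarase (FH) and malate dehydrogenase close the cycle. FH had 34.9 and 105 FPKM in METTL3 WT cells, against 32.7 and 87.3 FPKM in METTL3 K177Q cells. MDH1, the cytosolic malate dehydrogenase, on chromosome 2 from 63588609 to 63607197, had 69.1 and 300 FPKM in METTL3 WT cells, against 78.0 and 305 FPKM in METTL3 K177Q cells. MDH2, the mitochondrial enzyme, on chromosome 7 from 76048051 to 76067508, had 68.9 and 184 FPKM, and 65.3 and 171 FPKM. MDH1 and MDH2 were thus at the same level in the METTL3 WT sub-polysome library, while in polysomes MDH1 was 1.63-fold above MDH2. In METTL3 K177Q cells MDH1 was 1.19-fold and 1.78-fold above MDH2. MDH1 had the highest translation efficiency of the cycle's genes in both genotypes, 4.34 and 3.91.

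**Figure D3:**
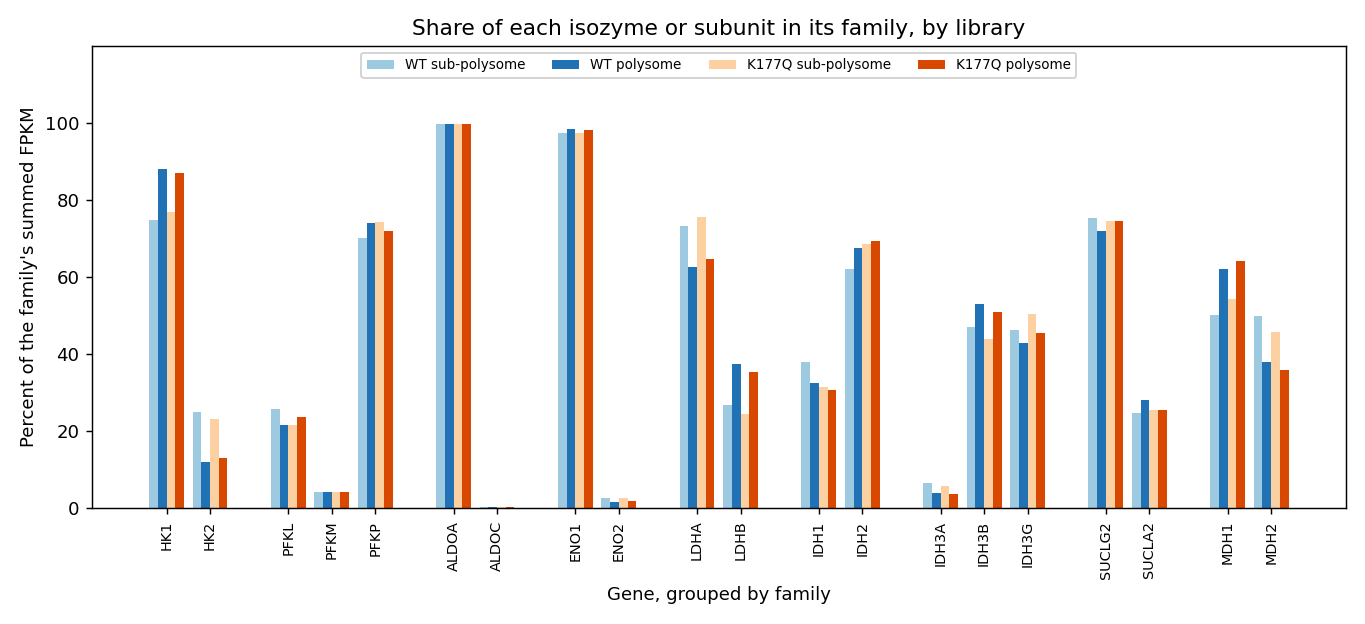
Percent of each family's summed FPKM (y axis) held by each isozyme or subunit gene (x axis), with 1 bar per library and no error, since there is 1 library per genotype and fraction. The shares of HK1, LDHB and MDH1 are higher in both polysome libraries than in both sub-polysome libraries, and IDH3A stays below 7% of its family.

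Between the genotypes, no gene of the 38 differed by 1.5-fold or more. For translation efficiency, 0 of the 38 lay 1.5-fold or more above and 0 as far below the METTL3 WT value, where 4.08% (above) and 7.03% (below) of all genes kept did. For the polysome value alone, 0 and 0 of the 38 passed this limit, against 2.13% higher and 3.13% lower of all genes kept. For the sub-polysome value alone, 0 and 0 passed it, against 4.01% and 2.94%. The median log2 ratio of translation efficiency, METTL3 K177Q to METTL3 WT, was -0.01 over the 38 genes and -0.01 over all genes kept. Among the 5379 genes whose mean reached 10 FPKM, 0.706% lay 1.5-fold or more above and 5.8% as far below. The SD of the log2 ratio across genes was 0.195 for the 38, 0.333 for those 5379 genes and 0.455 for all genes kept. Its lower and upper quartiles were -0.12 and 0.08 for the 38, against -0.29 and 0.11 for those 5379 genes. Over all genes kept they were -0.25 and 0.21.

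Ratios near 0 depend on how libraries are scaled. After rescaling each library to the same total (TPM), the median over all genes kept moved from -0.01 to 0.29, and 37 of the 38 genes were above 0, against 18 as deposited. With TPM, HK2, PFKL, RPE and SUCLG2 lay 1.5-fold or more above the METTL3 WT value and 0 of the 38 as far below it, where 18.6% and 2.83% of the 11143 genes kept with this scaling did. The genes of each pathway were therefore placed against the median of all genes kept, which moves with the scaling as they do.

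By pathway, the median log2 ratio was 0.03 for glycolysis, with 11 genes above and 6 below the median of all genes kept. For the TCA cycle it was -0.01, with 6 above and 9 below. For the pentose phosphate pathway it was -0.16, with 1 above (RPE) and 5 below. The place of the TCA cycle depended on the genes it was set against. The 5379 genes whose mean reached 10 FPKM had a median of -0.08, with 11 TCA cycle genes above it and 4 below. For glycolysis 13 were then above and 4 below. For the pentose phosphate pathway 1 was above (again RPE) and 5 below, and its distance from the median was -0.08 in place of -0.15. These counts keep ALDOC, RPE, IDH3A and SUCLA2, whose own means were below 10 FPKM. The ratio of each of them lay above that median. The pentose phosphate median came with a sub-polysome median of 0.15 and a polysome median of -0.04, while for the other pathways these medians lay between -0.01 and 0.05. With TPM both signs turned for the pentose phosphate genes, to -0.059 and 0.055. The difference between pathways was not tested, and the SD of the ratio across genes was 0.256 among the 6 pentose phosphate genes.

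**Figure D4:**
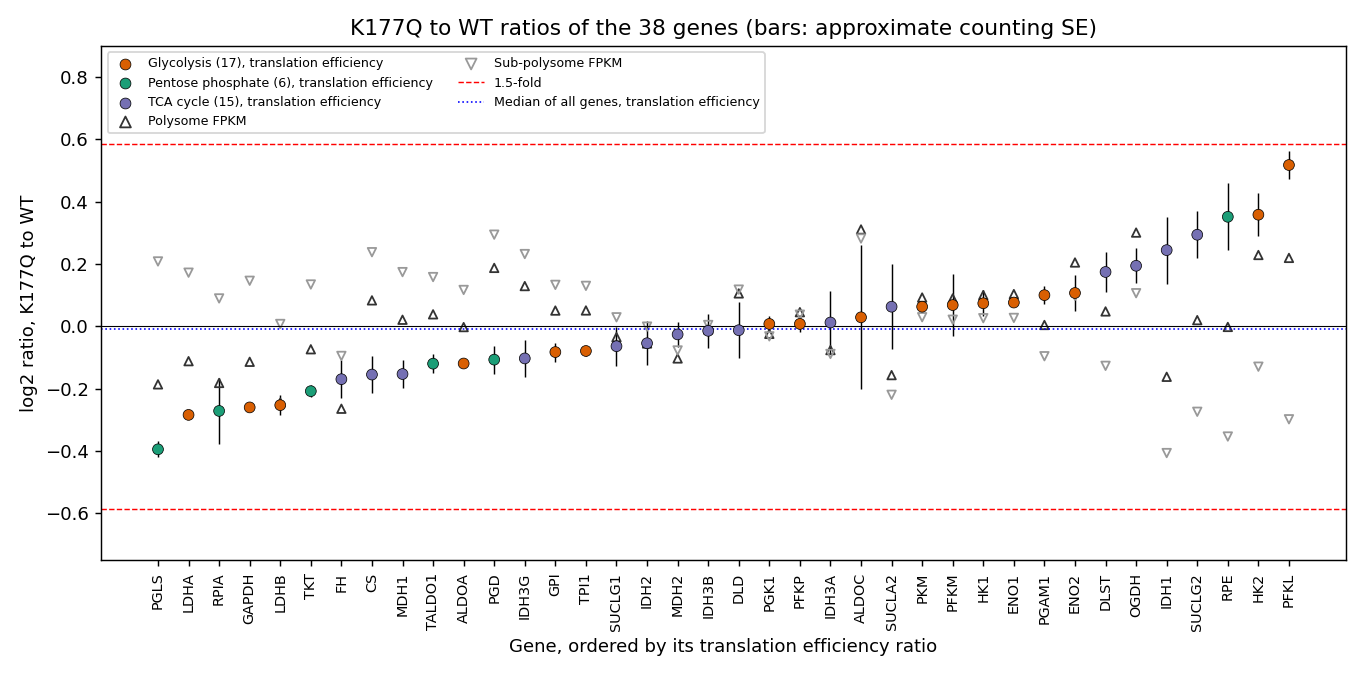
Log2 of the METTL3 K177Q over the METTL3 WT value (y axis) for each of the 38 genes (x axis, ordered), as circles for translation efficiency, upward triangles for the polysome and downward triangles for the sub-polysome value. Bars are the approximate counting SE (1 library per genotype and fraction, no replicate error), dashed lines mark 1.5-fold, and PGLS (-0.39) and PFKL (0.52) stand at the ends.

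PFKL had the highest ratio, a log2 value of 0.52 or 1.43-fold, with a counting SE of 0.044. HK2 followed with 0.36 (counting SE 0.068), RPE with 0.35 (0.107), SUCLG2 with 0.29 (0.076) and IDH1 with 0.24 (0.108). In all 5 the sub-polysome value was lower in METTL3 K177Q cells, by log2 differences of -0.30, -0.13, -0.35, -0.27 and -0.41 in that order. The translation efficiency ratio contains the sub-polysome value, so choosing genes by a high or low ratio favours an opposite change in that value. Both had opposite signs in 27 of the 38 genes. The polysome value was higher for PFKL (0.22) and HK2 (0.23), near 0 for RPE (-0.0018) and SUCLG2 (0.02) and lower for IDH1 (-0.16). Counting SE covers the number of fragments only, not the spread between cultures or libraries.

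PGLS had the lowest ratio, -0.39 or 0.761-fold, with a counting SE of 0.026. LDHA had -0.28 (counting SE 0.015), RPIA -0.27 (0.106), GAPDH -0.26 (0.0075) and LDHB -0.25 (0.031). In PGLS, LDHA, RPIA and GAPDH the sub-polysome value was higher (0.21, 0.17, 0.09 and 0.15) and the polysome value lower (-0.19, -0.11, -0.18 and -0.11) in METTL3 K177Q cells as deposited. With TPM the sub-polysome values of LDHA, RPIA and GAPDH turned to lower (-0.03, -0.12 and -0.06) and that of PGLS was 0.0025, while the polysome values of all 4 stayed below 0. LDHB was at 0.01 in the sub-polysome and -0.24 in the polysome library, and at -0.20 and -0.15 with TPM. Among isozymes, both lactate dehydrogenases were low by about the same amount, whereas on the log2 scale PFKL stood 0.51 above PFKP, IDH1 0.30 above IDH2, HK2 0.28 above HK1 and SUCLG2 0.23 above SUCLA2. ALDOC stood 0.15 above ALDOA, which is less than the counting SE of ALDOC (0.231). The counting SE of SUCLA2 was 0.137. Malate dehydrogenase (-0.15 and -0.03), enolase (0.08 and 0.11) and the subunits IDH3B and IDH3G (-0.01 and -0.10) differed less.

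Over the 38 genes, the log2 translation efficiency ratio correlated with log2 coding length at r = 0.40 (rho = 0.37), and over the coding genes kept at r = 0.40 (rho = 0.46). By pathway it was r = 0.59 (rho = 0.52) in glycolysis, 0.34 (0.14) in the TCA cycle and, in the other direction, -0.30 (-0.03) over the 6 pentose phosphate genes. With log2 mean FPKM it correlated at r = -0.46 (rho = -0.49) over the 38 and r = -0.27 (rho = -0.32) over the coding genes kept. These correlations are across genes of the same 4 libraries, so the points are not independent, and no p is given. With a smooth trend on coding length removed, a choice made after seeing the data, PFKL was at 0.38, HK2 at 0.18 and PGLS at -0.27. RPE (0.51) was then the highest and TKT (-0.30) the lowest of the 38, and HK1, PFKM and PFKP were at -0.10, -0.07 and -0.13 in place of 0.07, 0.07 and 0.01.

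Of 60 further genes linked to these pathways, 53 were kept. Of these, 2 lay 1.5-fold or more above their METTL3 WT translation efficiency and 0 as far below, where 4.08% and 7.03% of all genes kept did, so the count above is near the background. LIAS, the lipoyl synthase that serves the pyruvate and 2-oxoglutarate dehydrogenase complexes, had 0.898 and 2.19 FPKM in METTL3 WT cells, against 0.361 and 2.43 FPKM in METTL3 K177Q cells, a log2 ratio of 1.26. H6PD, which starts an oxidative pentose phosphate route inside the endoplasmic reticulum, had 3.03 and 5.00 FPKM, and 3.38 and 8.70 FPKM, a log2 ratio of 0.64. Both are at low levels. By list, the median log2 ratio was 0.0010 for 12 regulators and minor isozymes of glycolysis, 0.07 for 4 glucose and lactate transporters and 0.09 for 15 genes of pyruvate entry. It was 0.14 for 8 genes linked to the pentose phosphate pathway and 0.02 for 14 linked to the TCA cycle. The median log2 translation efficiency of these 53 genes was 0.64 in METTL3 WT and 0.66 in METTL3 K177Q cells, lower than the 0.99 and 1.05 of the 38 enzymes and higher than the 0.14 and 0.16 of all genes kept.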

How the data were processed

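Poly(A)-selected RNA of the sub-polysome and polysome fractions was sequenced by the study with a strand-directional kit. The authors deposited 1 table of FPKM per gene, with the library's mapped fragments as the base, and no counts. Per the labels' processing notes, STAR 2.7 and StringTie 2.1.5 were used with hg38. The annotation is not given in the sources used here. The table also holds 4 value columns, named with a 1 where the 4 used here have a 2, that match none of the samples given. They were left aside, so the spread they may hold was not examined. FPKM was read as deposited. Translation efficiency was polysome over sub-polysome FPKM on the log2(FPKM + 0.1) scale, which understates changes of low genes, for genes whose mean over the 4 libraries reached 1 FPKM. The limit for a difference was 1.5-fold.

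With 1 library per genotype and fraction, no test was made. The 38 genes, the lists and the rule for named genes (the 3 most abundant genes and the highest and lowest translation efficiency of each pathway, all isozyme families, any gene past 1.5-fold, and up to 3 further linked genes in each direction) were chosen with earlier results of these data known, and other genes of the 38 were named for their pathway role or, for the 5 highest and 5 lowest ratios, after their values were seen. Positions, lengths and start codons are those of GENCODE 44 canonical transcripts on GRCh38, matched by symbol. FPKM multiplied by transcript length has a lowest cluster, taken as 1 fragment, which gave approximate fragment numbers and counting SEs. GENCODE 44 names pseudogenes after 19 of the 38 genes, and exons of TPI1, RPE and IDH3A overlap a gene on the other strand. The calculation was run on simulated libraries with counting noise only and planted 2-fold changes, for genes whose mean reached 10 FPKM. That run covers neither the scaling of libraries nor the spread between them. Alternatives were other pseudocounts, filters, scalings and thresholds. The tools were matplotlib 3.10.9, statsmodels 0.14.6, scipy 1.17.1, numpy 2.4.6 and pandas 2.3.3 under Python 3.11.15.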

Additional observations from a re-analysis of the deposited data

How the results depend on the processing

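No paired analysis was possible because each genotype and fraction had 1 library, and no replicate could be left out. Medians below are on the log2 scale and are given for glycolysis, pentose phosphate and TCA cycle genes in that order. With TPM, the medians of translation efficiency were 1.33, 0.70 and 1.07 in METTL3 WT and 1.70, 1.05 and 1.5 in METTL3 K177Q cells. Those of its ratio were then 0.32, 0.13 and 0.28, those of the sub-polysome ratio -0.18, -0.059 and -0.21, and 4 genes were at least 1.5-fold higher. Size factors gave 1.15, 0.51 and 0.96 for translation efficiency in METTL3 K177Q cells. Centring on all genes gave 1.05, 0.42 and 0.79 in METTL3 WT and 1.10, 0.45 and 0.90 in METTL3 K177Q cells. These scalings add a near-constant amount to each gene by construction. A minimum mean of 10 FPKM removes RPE, ALDOC, IDH3A and SUCLA2. It gave 0.74 for pentose phosphate genes in METTL3 WT and 0.54 in METTL3 K177Q cells, against 0.57 and 0.62 in the main setting. The order of the genotypes in this median thus turned with the filter. The other medians moved by less than 0.1 under each alternative, the trend on coding length included. As deposited and with the other pseudocounts, filters, size factors, centring and the 2-fold limit, 0 of the 38 genes were past the limit in either direction. Of 213 values of the 27 genes named by the rule, METTL3 included, 33 moved by 0.1 or more, 27 with TPM and 6 with the trend on coding length removed. Depth limits ALDOC most, with a counting SE of 0.231, and the spread between libraries was not examined for any gene.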

Other observations

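Within the TCA cycle, genes at higher levels lay further in polysomes. Log2 translation efficiency correlated with log2 mean FPKM at r = 0.80 (rho = 0.81) in METTL3 WT and r = 0.75 (rho = 0.64) in METTL3 K177Q cells over the 15 genes. Over the 17 glycolytic genes r was 0.23 and 0.02, and over the 6 pentose phosphate genes it was 0.58 and 0.24. Over all 38 genes it was 0.40 and 0.22, and over the 10305 coding genes kept 0.06 and -0.07. The points share their libraries, and the mean FPKM includes the polysome value, so that both measures share a term. No p is given.

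In METTL3 WT cells, 32 of the 38 genes were above 75% of all genes kept in translation efficiency, and 31 were in METTL3 K177Q cells. The 6 below in METTL3 WT cells were HK2 (glycolysis), PGLS, RPE and RPIA (pentose phosphate), and IDH3A and SUCLG2 (TCA cycle). SUCLG2 was close to the limit, above 74.97% of the genes kept. In METTL3 K177Q cells SUCLG2 was past the limit, while GAPDH and TKT were below it along with the other genes named.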
